A study of Homo sapiens with 4 samples.

Results

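The enzymes and reader proteins that write, copy and remove 5-methylcytosine were followed in 697 cells, an established human B-cell precursor acute lymphoblastic leukaemia line, after treatment with the degrader MZ1. The group held 10 genes taken by name and role, with earlier results of these data known: the methyltransferases DNMT1, DNMT3A and DNMT3B, the hemimethylated-DNA readers UHRF1 and UHRF2, the dioxygenases TET1, TET2 and TET3, and the glycosylases TDG and MBD4. All 10 had a row among the 28814 genes of the count table. RNA was sequenced from 2 libraries of cells given 1 µM MZ1 for 24 h and from 2 libraries of cells given an equal volume of the solvent DMSO. MZ1 is a bifunctional molecule that brings BET bromodomain proteins to the VHL ubiquitin ligase and so marks them for degradation. All 4 libraries came from 1 cell line at 1 dose and 1 time, the labels do not say whether replicates were separate cultures, and p-values therefore reflect only how these libraries scatter, possibly for technical reasons.

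Methylation of CpG dinucleotides is copied at each cell division. UHRF1 binds the half-methylated sites behind the replication fork and brings DNMT1, which methylates the new strand, while DNMT3A and DNMT3B methylate sites that carried no mark. TET enzymes oxidise 5-methylcytosine, and TDG then cuts out the late oxidation products, which base excision repair replaces with unmethylated cytosine. MBD4 removes thymine left by deaminated 5-methylcytosine. Mutations of DNMT3A and TET2 are well known in myeloid leukaemia and clonal haematopoiesis. DNA methylation itself and protein levels were not analysed here, so all values below are RNA levels.

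The 4 libraries held 14246367 to 16488005 counted reads. Levels are given in CPM, counts scaled to library size, after TMM scaling, a correction for the make-up of each library. They are therefore shares of a library. A gene was called higher or lower when edgeR's quasi-likelihood test gave a Benjamini-Hochberg adjusted p below 0.05 over the 16862 tested genes. MYC, a gene known to depend on BET proteins, had 6.08 and 5.57 CPM in the MZ1 libraries, against 495 and 522 CPM in the DMSO libraries. HEXIM1, which usually rises when BET proteins are blocked, had 126 and 115 CPM with MZ1 against 46.2 and 42.9 CPM with DMSO. The response was broad: 84.2% of tested genes were called, 42.8% higher and 41.3% lower, and 91.3% had MZ1 and DMSO values that did not overlap. Mitochondrially encoded genes took 8.98% and 9.26% of counts in MZ1 libraries and 5.82% and 5.48% in DMSO libraries. The part of this shift in the results was not tested.

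Of the 10 genes, 8 had enough reads to be tested. In MZ1-treated cells 5 of them were lower (UHRF1, DNMT1, TDG, DNMT3A and MBD4), 2 were higher (DNMT3B and UHRF2) and TET3 was not called. In 7 of the 8, the MZ1 and DMSO values did not overlap. These counts of 7 of 8 are near the shares of all tested genes given above, so the number of calls is no property of these genes. Their median log2 fold change was -0.32, beside 0.05 over all tested genes. By at least 2-fold, UHRF1 was lower and DNMT3B higher, beside 26.2% and 29.0% of tested genes that fell or rose by that much. The plot of levels by library shows each gene in each of the 4 libraries.

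**Figure D1:**
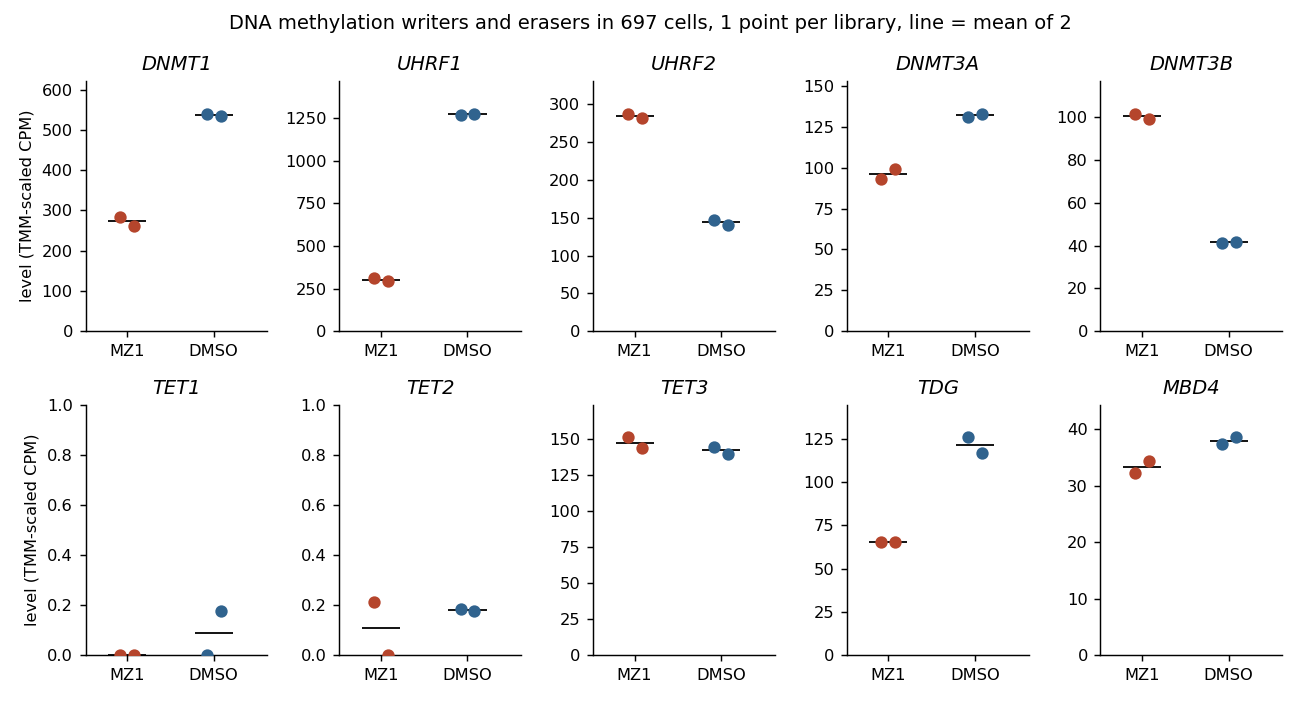
Level of each gene in TMM-scaled CPM, with a linear axis from 0 for each gene, 1 point per library and a line at the mean of 2, MZ1 left of DMSO. UHRF1 and DNMT1 sit lower and DNMT3B and UHRF2 higher in both MZ1 libraries, TET3 values overlap, and TET1 and TET2 lie at 3 counts or fewer in every library.

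The maintenance pair fell together, UHRF1 by more than DNMT1. UHRF1 (ENSG00000276043; hg38, chromosome 19, 4903080 to 4962154, plus strand), the reader that carries DNMT1 to newly copied DNA, had 310.7 and 295.8 CPM in the MZ1 libraries, against 1269.7 and 1276.4 CPM in the DMSO libraries. Both MZ1 libraries lay far below both DMSO libraries, and the values within each treatment were close. The means were 303 ± 10.5 CPM with MZ1 and 1273 ± 4.74 CPM with DMSO (SD, n = 2 each), which is 4.20-fold lower (log2 fold change -2.07 ± 0.04 SE, adjusted p = 3.84e-24, edgeR). Of all tested genes, 11.4% had a lower log2 fold change than UHRF1. DNMT1 (ENSG00000130816; chromosome 19, 10133345 to 10231286, minus strand), the maintenance methyltransferase, had 283.9 and 262.1 CPM with MZ1, against 540.6 and 534.6 CPM with DMSO. The groups did not overlap here either. DNMT1 averaged 273 ± 15.5 CPM with MZ1 and 538 ± 4.26 CPM with DMSO, 1.97-fold lower (log2 fold change -0.98 ± 0.04 SE, adjusted p = 9.59e-17, edgeR), and 26.8% of tested genes had a lower log2 fold change.

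UHRF2 moved the other way from its paralogue. UHRF2 (ENSG00000147854; chromosome 9, 6413151 to 6507054, plus strand) resembles UHRF1 in domain layout but does not replace it in maintenance methylation in mouse cells. It had 287.7 and 281.6 CPM in the MZ1 libraries, against 147.7 and 140.5 CPM in the DMSO libraries, with both MZ1 values above both DMSO values. The means of 285 ± 4.35 CPM with MZ1 and 144 ± 5.03 CPM with DMSO gave a 1.98-fold higher level (log2 fold change 0.98 ± 0.05 SE, adjusted p = 2.64e-16, edgeR). Its pseudogene UHRF2P1 had 0 and 1 counts with MZ1 and 6 and 0 with DMSO.

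All promoter windows of these 3 genes are printed. They were chosen after UHRF1 and DNMT1 were seen to fall with the replication genes described further on. Windows run from 250 bases before to 50 bases after an annotated start (RefSeq, GRCh38.p14), 5′ to 3′ on the gene's own strand. All 10 genes matched, with 21 windows in all. Capitals mark the letters searched for as an E2F site: TTTCCCGC, TTTCGCGC, TTTGCCGC or TTTGGCGC, read on both strands, so that GCGGGAAA and GCGCGAAA are minus-strand matches.
UHRF1, chr19:4909251-4909550, plus strand: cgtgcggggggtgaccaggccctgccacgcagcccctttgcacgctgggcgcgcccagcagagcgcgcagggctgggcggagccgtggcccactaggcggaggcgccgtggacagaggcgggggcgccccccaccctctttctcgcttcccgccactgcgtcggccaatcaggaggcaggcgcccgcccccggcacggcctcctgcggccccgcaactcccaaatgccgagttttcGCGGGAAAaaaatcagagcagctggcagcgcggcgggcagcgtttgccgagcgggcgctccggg
UHRF1, chr19:4909894-4910193, plus strand: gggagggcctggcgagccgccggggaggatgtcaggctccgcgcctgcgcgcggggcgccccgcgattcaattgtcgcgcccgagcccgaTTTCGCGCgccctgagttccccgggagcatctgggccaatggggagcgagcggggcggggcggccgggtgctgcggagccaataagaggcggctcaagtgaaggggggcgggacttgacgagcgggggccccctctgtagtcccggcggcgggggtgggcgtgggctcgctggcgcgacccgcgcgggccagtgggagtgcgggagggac
UHRF1, chr19:4910117-4910416, plus strand: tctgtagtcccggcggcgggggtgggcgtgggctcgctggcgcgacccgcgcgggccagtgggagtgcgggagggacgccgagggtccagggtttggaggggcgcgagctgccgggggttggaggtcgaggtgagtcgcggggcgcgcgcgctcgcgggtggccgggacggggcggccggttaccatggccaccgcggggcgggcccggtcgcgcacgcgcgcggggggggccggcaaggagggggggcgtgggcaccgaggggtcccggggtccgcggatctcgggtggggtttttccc
DNMT1, chr19:10194904-10195203, minus strand: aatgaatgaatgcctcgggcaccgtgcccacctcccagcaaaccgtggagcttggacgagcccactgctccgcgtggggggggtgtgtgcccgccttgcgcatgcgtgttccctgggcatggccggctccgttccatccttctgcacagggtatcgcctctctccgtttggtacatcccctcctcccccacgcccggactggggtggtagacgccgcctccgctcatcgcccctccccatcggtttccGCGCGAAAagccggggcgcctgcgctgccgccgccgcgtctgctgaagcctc
UHRF2, chr9:6412949-6413248, plus strand: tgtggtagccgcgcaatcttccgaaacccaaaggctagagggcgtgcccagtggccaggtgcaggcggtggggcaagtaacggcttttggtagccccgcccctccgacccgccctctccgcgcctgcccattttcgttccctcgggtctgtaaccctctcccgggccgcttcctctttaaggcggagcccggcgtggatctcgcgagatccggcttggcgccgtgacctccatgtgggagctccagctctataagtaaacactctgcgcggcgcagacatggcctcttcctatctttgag

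These letters stood in 3 of the 21 windows, namely 2 of the 3 UHRF1 windows and the only DNMT1 window. They began 14 and 160 bases before the start in the UHRF1 windows and 2 bases before it in the DNMT1 window, and overlapped none of the other letters searched. Among all 35116 promoter windows of the same length 3.31% held them. By gene, 3.99% of 27305 genes had such a window, and 11 of the 19 matched genes of the G1/S list did. The E-box letters CACGTG, to which MYC binds with its partner MAX, stood in 5 of the 21 windows (7.26% of all windows), in DNMT3A, TET2, TET3 and TDG, and in none of the 5 windows printed. The GC-box letters GGGCGG, searched on both strands too, stood in 13 of the 21 (45.0% of all windows). In the second UHRF1 window a pair of them overlapped each other. Some DNMT3A windows overlap, so the same E-box and some of the same GC boxes were counted there in more than a single window. CpG counts were 36, 40 and 46 in the 3 UHRF1 windows, 30 in that of DNMT1 and 26 in that of UHRF2, beside a median of 14 over all windows. The lowest count was 3, in the only DNMT3B window, which lies at a start inside the gene as GENCODE annotates it. The windows of UHRF1 and DNMT1 also lie at starts inside the genes as GENCODE annotates them. The E2F words contain CG, and the shares over all windows were not matched for CpG count. A match of letters is no measurement of binding, and any part of these sites in the changes was not tested.

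The de novo methyltransferases moved in opposite directions. DNMT3B (ENSG00000088305; chromosome 20, 32762385 to 32809356, plus strand) had 101.6 and 99.4 CPM in the MZ1 libraries, against 41.1 and 41.9 CPM in the DMSO libraries. Both MZ1 values stood well above both DMSO values. DNMT3B averaged 101 ± 1.60 CPM with MZ1 and 41.5 ± 0.593 CPM with DMSO, 2.42-fold higher (log2 fold change 1.28 ± 0.06 SE, adjusted p = 3.34e-16, edgeR), and 75.2% of tested genes had a lower log2 fold change. DNMT3A (ENSG00000119772; chromosome 2, 25227855 to 25342590, minus strand) had 92.9 and 99.2 CPM with MZ1, against 131.1 and 133.1 CPM with DMSO. The groups did not overlap, and the difference was the smaller of the pair in size. Its means were 96.1 ± 4.50 CPM with MZ1 and 132 ± 1.42 CPM with DMSO, 1.38-fold lower (log2 fold change -0.46 ± 0.05 SE, adjusted p = 1.07e-08, edgeR). Gene counts do not tell apart the catalytic and the shorter inactive isoforms that DNMT3B is known to have.

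Of the TET dioxygenases only TET3 was measurable. TET3 (ENSG00000187605; chromosome 2, 73986404 to 74108176, plus strand) had 151.0 and 143.8 CPM in the MZ1 libraries, against 144.5 and 139.5 CPM in the DMSO libraries, and the groups overlapped. The means were 147 ± 5.13 CPM with MZ1 and 142 ± 3.53 CPM with DMSO (log2 fold change 0.05 ± 0.05 SE, adjusted p = 0.307, edgeR). With upper-quartile scaling, which moved the median of all genes by 0.27, TET3 was called higher (log2 fold change 0.33, adjusted p = 2.04e-06, edgeR), so its direction depends on the scaling. TET1 (ENSG00000138336; chromosome 10, 68560656 to 68694482, plus strand) had 0 counts in both MZ1 libraries, against 0 and 3 counts in the DMSO libraries. TET2 (ENSG00000168769; chromosome 4, 105145875 to 105279816, plus strand) had 3 and 0 counts with MZ1, against 3 and 3 counts with DMSO. Both genes were thus near the limit of detection in either treatment: a count of 0 allows up to 3 counts, or 0.206 and 0.211 CPM in the MZ1 libraries and 0.187 and 0.182 CPM in the DMSO libraries. The summed TET2 counts gave a ratio of 0.596 of MZ1 over DMSO with a 95% counting interval of 0.0964 to 2.79, so no difference was detectable at this depth.

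The glycosylases fell by different amounts. TDG (ENSG00000139372; chromosome 12, 103965804 to 103988874, plus strand) had 65.4 and 65.3 CPM in the MZ1 libraries, against 126.0 and 116.8 CPM in the DMSO libraries, and the groups did not overlap. It averaged 65.3 ± 0.0653 CPM with MZ1 and 121 ± 6.51 CPM with DMSO, 1.86-fold lower (log2 fold change -0.89 ± 0.06 SE, adjusted p = 1.17e-13, edgeR). Its pseudogene TDGP1, which may take some of its reads, was also lower in raw reads, with 7 and 11 counts with MZ1 against 36 and 32 with DMSO. MBD4 (ENSG00000129071; chromosome 3, 129430944 to 129440179, minus strand) had 32.3 and 34.5 CPM with MZ1, against 37.4 and 38.6 CPM with DMSO. Its groups lay next to each other without overlapping. The means were 33.4 ± 1.57 CPM with MZ1 and 38.0 ± 0.806 CPM with DMSO, 1.14-fold lower (log2 fold change -0.19 ± 0.08 SE, adjusted p = 0.0355, edgeR). That call was lost under 6 of 12 alternative analyses, among them those without MZ1 replicate 1 (-0.13, adjusted p = 0.22, edgeR) and without DMSO replicate 2 (-0.21, adjusted p = 0.0822, edgeR), and with upper-quartile scaling the sign turned (0.083). Of the exonic length of MBD4, 4.29% is shared with IFT122 on the opposite strand.

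The balance between paralogues was compared inside each library, where the scaling between libraries cancels. Counts were divided by the union exonic length of each gene, and the exact two-sided permutation test over 2 against 2 libraries cannot go below p = 0.333, which was its value for all ratios. UHRF1 stood at 2.08 and 2.02 times the level of UHRF2 in the MZ1 libraries, against 16.6 and 17.5 times in the DMSO libraries. The ratio was 8.30-fold lower with MZ1, and both MZ1 libraries lay far from both DMSO libraries. UHRF1 stood at 2.08 and 2.15 times the level of DNMT1 with MZ1, against 4.47 and 4.55 times with DMSO, a 2.13-fold lower ratio that was added after the values were seen.

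DNMT3B passed DNMT3A in level per length. The ratio of DNMT3B to DNMT3A was 2.84 and 2.60 in the MZ1 libraries, against 0.813 and 0.817 in the DMSO libraries, 3.33-fold higher. DNMT1 to DNMT3A gave 3.75 and 3.24 with MZ1, against 5.06 and 4.93 with DMSO, 1.43-fold lower. In each of these comparisons the groups did not overlap. Of the summed level of the 3 methyltransferases, DNMT3B made up 37.4% and 38.0% with MZ1, against 11.8% and 12.1% with DMSO, and DNMT1 made up 49.4% and 47.4% with MZ1, against 73.6% and 73.1% with DMSO. DNMT3A made up 13.2% and 14.6% with MZ1 and 14.5% and 14.8% with DMSO, which overlapped. Over the longest annotated transcript, a length added after the values were seen for these shares, DNMT3B made up 27.3% and 28.0% with MZ1 and 7.68% and 7.88% with DMSO, and DNMT1 61.2% and 59.2% with MZ1 and 81.1% and 80.7% with DMSO. The order depends on the length used only in part: over the longest transcript, DNMT3B to DNMT3A was 2.40 and 2.19 with MZ1 and 0.686 and 0.690 with DMSO, while UHRF1 to UHRF2 was 0.933 and 0.907 with MZ1 and 7.43 and 7.85 with DMSO, so that UHRF1 was then below UHRF2 in MZ1 libraries.

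On the removal side, TDG to MBD4 was 1.39 and 1.30 in the MZ1 libraries, against 2.30 and 2.07 in the DMSO libraries, 1.63-fold lower. The 3 methyltransferases together stood at 4.76 and 4.82 times the 3 TET genes with MZ1, against 6.36 and 6.55 times with DMSO, 1.35-fold lower. Both ratios were lower in both MZ1 libraries. Since TET1 and TET2 were near 0, the TET sum is almost all TET3.

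**Figure D2:**
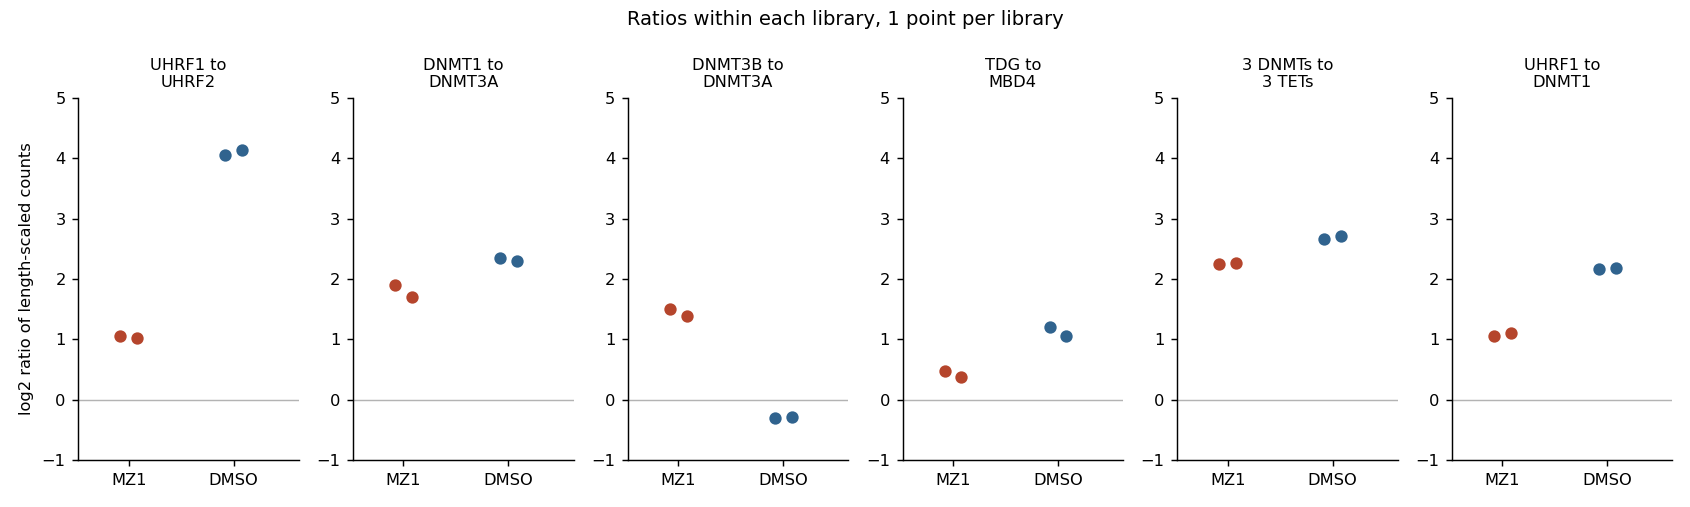
Within-library ratios of length-scaled counts on a log2 axis, with the 2 MZ1 libraries drawn left of the 2 DMSO libraries. UHRF1 to UHRF2 shows the widest gap (difference -3.05 on the log2 scale), and DNMT3B to DNMT3A is the only pair that was higher with MZ1 (1.74).

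In CPM per kilobase of union exonic length, UHRF1 led in both treatments, at 58.9 with MZ1 and 247 with DMSO. The order below holds for that length only, since over the longest transcript UHRF1 lay below UHRF2 in the MZ1 libraries. In MZ1 libraries UHRF2 (29.0 and 28.4) and DNMT1 (29.0 and 26.8) came next, with values that overlapped, followed by DNMT3B (mean 21.7), TDG (13.3), TET3 (12.0), MBD4 (9.94) and DNMT3A (7.99). In DMSO libraries DNMT1 was second at 54.9, followed by TDG (24.8), UHRF2 (14.5), TET3 (11.6), MBD4 (11.3), DNMT3A (11.0) and DNMT3B (8.96). TET3 (11.8 and 11.4) and MBD4 (11.2 and 11.5) overlapped in DMSO, and MBD4 lay barely above DNMT3A (10.9 and 11.1). The level of DNMT3B was thus the fourth highest in MZ1 libraries and the lowest of the measurable genes in DMSO libraries.

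Genes that act around these enzymes were followed in lists drawn up by role. The counts of each list are to be read beside 42.8% higher and 41.3% lower over all tested genes. Of 16 tested cofactors and recruiters of the methyltransferases, 12 were lower, 3 higher and 1 was not called (median log2 fold change -1.13). HELLS, the remodeller needed for methylation of repeats, had 41.7 and 36.6 CPM with MZ1, against 87.4 and 74.3 CPM with DMSO, and PCNA, the clamp that DNMT1 binds at the fork, had 137 and 128 CPM with MZ1, against 313 and 301 CPM with DMSO. LIG1, the replicative ligase whose methylated form UHRF1 reads, had 46.1 and 46.1 CPM with MZ1, against 143 and 147 CPM with DMSO (3.14-fold lower). EHMT2, a histone H3 lysine methyltransferase also called G9a, had 32.3 and 30.5 CPM with MZ1, against 172 and 175 CPM with DMSO, 5.52-fold lower. Each of these fell in both MZ1 libraries.

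The histone enzymes that place marks read by the de novo methyltransferases differed in direction. SETD2, whose mark DNMT3B reads, rose 2.37-fold, with 340 and 338 CPM with MZ1 against 143 and 142 CPM with DMSO. NSD1, whose mark DNMT3A reads, fell 3.65-fold, with 54.2 and 58.4 CPM with MZ1 against 209 and 203 CPM with DMSO. TRIM28, a corepressor of repeats, rose to 1280 and 1246 CPM with MZ1, against 988 and 1006 CPM with DMSO (log2 fold change 0.34). DNMT3L, the inactive partner of the de novo enzymes, had 52 and 59 counts with MZ1, against 2 and 0 counts with DMSO, a ratio of 66.1 whose 95% counting interval starts at 17.9. It passed the count filter through the MZ1 libraries alone, so that it could only be higher.

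Of the 7 genes listed as methyl-CpG readers 6 were tested: 4 were lower, 1 was higher (2 with upper-quartile scaling) and 1 was not called (median -0.56). Over all tested genes 41.3% were lower and 42.8% higher. MBD2, a repressor that binds methylated DNA, had 30.2 and 31.7 CPM with MZ1, against 75.9 and 75.2 CPM with DMSO (2.44-fold lower). MBD3, a listed family member for which binding of methylated CpG is not assumed here, was 1.75-fold lower. MBD1 rose, with 157 and 162 CPM with MZ1 against 77.1 and 84.6 CPM with DMSO (1.97-fold higher). ZBTB4 fell (log2 fold change -0.42), ZBTB33 was not called (0.04, adjusted p = 0.527, edgeR) and ZBTB38 had at most 1 count in any library.

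Among 15 tested TET partners and enzymes around 2-oxoglutarate, the TET cosubstrate, 6 were higher, 7 lower and 2 not called (median 0.08). These counts are close to the 42.8% higher and 41.3% lower of all tested genes. GADD45B, linked to active demethylation, had 29.6 and 29.1 CPM with MZ1, against 5.13 and 7.49 CPM with DMSO (4.64-fold higher), and CXXC5, a CpG-binding protein, was 1.73-fold higher. DCAF1, a ubiquitin ligase subunit that modifies TET proteins, had 17.9 and 18.1 CPM with MZ1, against 88.6 and 85.8 CPM with DMSO (4.85-fold lower). The Krebs cycle genes split: IDH2, which makes 2-oxoglutarate, was 1.98-fold lower and FH, which removes fumarate, 2.29-fold lower, while SDHA, a subunit of the enzyme that removes succinate, was 2.30-fold higher. Members of the same families went other ways: of the 3 other succinate dehydrogenase subunits 2 were lower (2.62-fold and 2.09-fold) and 1 was not called, and the other isocitrate dehydrogenase gene listed was higher (log2 fold change 0.47).

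Of 17 base excision repair genes 7 were higher, 7 lower and 3 not called (median 0.0016), close to the 42.8% and 41.3% of all tested genes. Without either DMSO library 4 were called higher. The falls were the larger changes. UNG, the uracil glycosylase of replicating cells, had 2.97 and 3.11 CPM with MZ1, against 86.9 and 88.1 CPM with DMSO (28.7-fold lower). NTHL1, a glycosylase for oxidised pyrimidines, had 1.77 and 2.02 CPM with MZ1, against 39.9 and 42.6 CPM with DMSO (21.7-fold lower). FEN1, the flap nuclease, was 3.11-fold lower, whereas POLB, the gap-filling polymerase that follows TDG, was 2.05-fold higher and MPG was called higher too (log2 fold change 0.85).

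In the cycle that makes S-adenosylmethionine, the methyl donor, 3 of 9 genes were higher, 5 lower and 1 not called (median -0.19). Among all tested genes the shares were 42.8% higher and 41.3% lower. MTR, which remakes methionine, had 40.5 and 45.8 CPM with MZ1, against 187 and 182 CPM with DMSO (4.29-fold lower), and MTAP, which salvages methionine, was 4.75-fold lower. The synthase subunit MAT2A (-0.45), MTRR (-0.57) and AHCY (-0.19) fell on the log2 scale, AHCYL1 (0.51) and AHCYL2 (0.54) rose, and MAT2B was not called (0.07, adjusted p = 0.179, edgeR). With upper-quartile scaling the sign of AHCY turned (0.077).

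The G1/S list, genes of replication licensing and DNA synthesis that are switched on as cells enter S phase, moved with UHRF1 and DNMT1. Of 22 genes 20 were lower, none was called higher (2 were with upper-quartile scaling) and 2 were not called (median -2.06), beside 41.3% lower over all tested genes. Their summed level was 1235 and 1150 CPM in the MZ1 libraries, against 4223 and 4176 CPM in the DMSO libraries. The helicase subunits MCM6 and MCM3 were 6.95-fold and 6.97-fold lower and MCM7 4.39-fold lower, beside 4.20-fold for UHRF1 and 1.97-fold for DNMT1. In bulk RNA, fewer cells in a phase and less RNA per cell cannot be told apart, and the part of the cell cycle in the UHRF1 and DNMT1 values was not tested.

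**Figure D3:**
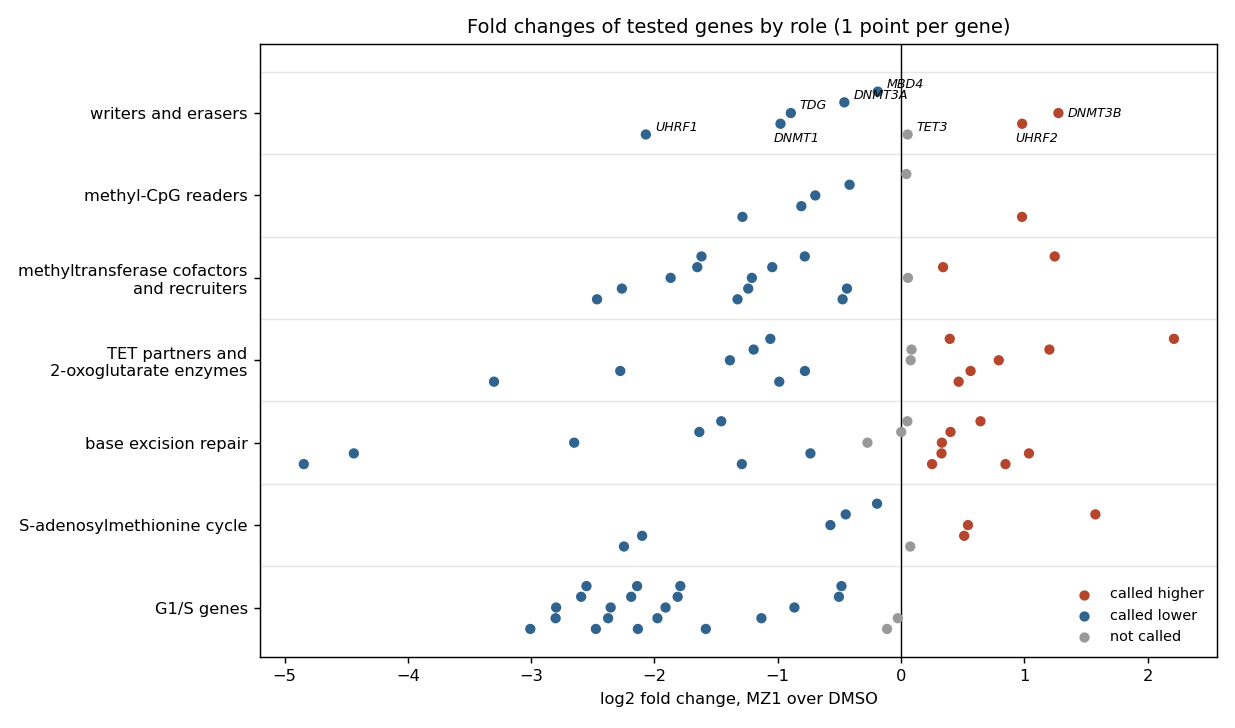
Log2 fold change (MZ1 over DMSO) of each tested gene with a fitted fold, 1 point per gene, in rows by role, coloured by call; DNMT3L, too rare in DMSO libraries for a fitted fold, is not drawn. UHRF1 (-2.07) and DNMT1 (-0.98) lie left of 0 with most cofactors and G1/S genes, UHRF2 (0.98) and DNMT3B (1.28) lie right of it, and the median of the G1/S row is -2.06.

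Germline and imprinted genes, whose expression is known to be linked to DNA methylation, were read as a last group. Not all were silent in the DMSO libraries. The part of methylation in their changes was not tested. Of 32 germline genes 8 had a row and 4 were tested: SYCP3, STK31 and PAGE2 were higher and TUBA3D lower. Over all tested genes 42.8% were higher. Without MZ1 replicate 1 only 1 was called higher. All were rare: SYCP3, a synapsis protein, had 39 and 34 counts with MZ1 against 16 and 14 with DMSO. STK31 had 28 and 19 counts with MZ1 against 10 and 11 with DMSO, and its call was lost without MZ1 replicate 1 (adjusted p = 0.102, edgeR). PAGE2 had 17 and 10 counts with MZ1 against 0 in both DMSO libraries, at least 10.7-fold higher by 3 counts over the group, and did not pass the count filter without MZ1 replicate 1. TUBA3D had 11 and 18 counts with MZ1 against 92 and 73 with DMSO.

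Of 21 imprinted genes 13 had a row and 8 were tested, with 6 higher, 1 lower and 1 not called (median 1.94). Under the stricter count filter of at least 1 CPM in all 4 libraries, 3 were higher and none lower. The share of all tested genes called higher was 42.8%. KCNQ1OT1, a long RNA from an imprinting centre, had 77.2 and 76.5 CPM with MZ1, against 16.6 and 15.8 CPM with DMSO (4.76-fold higher). L3MBTL1 had 68.3 and 66.3 CPM with MZ1, against 18.3 and 19.2 CPM with DMSO (3.59-fold higher), and NNAT had 14.1 and 14.5 CPM with MZ1, against 0.916 and 0.354 CPM with DMSO (22.4-fold higher). The NNAT value rests on 15 and 6 counts in the DMSO libraries, and its log2 fold change of 4.49 was 5.26 without DMSO replicate 1 and 3.91 without DMSO replicate 2. GRB10 fell (log2 fold change -0.14), but its call was lost without MZ1 replicate 1 and upper-quartile scaling gave 0.13. PAGE2 and 1 of the 6 imprinted genes reached the count filter through the MZ1 libraries alone and could only be higher. STK31, NNAT and another of the 6 imprinted genes would not have passed it on their DMSO libraries alone. They too could hardly have been called lower. Of the other genes named, MPG shares 27.3% of its exonic length with other genes, DCAF1 19.3%, NTHL1 16.5%, SYCP3 14.8%, HEXIM1 14.4%, DNMT3L 13%, MAT2A 12.4% and MBD3 11.7%, and reads from such stretches cannot be assigned without strand.

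Markers of the labelled cell type were read beside these results. The 12 B-cell precursor markers summed to 1260 and 1324 CPM in the MZ1 libraries, against 3987 and 3989 CPM in the DMSO libraries. All 12 were detected, with 10 of 12 lower and 1 higher, beside 41.3% lower and 42.8% higher over all tested genes. The 5 myeloid markers with a row, of 6 listed, summed to 28.3 and 24.9 CPM with MZ1, against 6.66 and 5.31 CPM with DMSO, with 4 higher, 1 lower and MPO at 0 in the DMSO libraries. Those 4 passed the count filter through the MZ1 libraries alone and could only be higher, as did CD28 and the only erythroid gene tested. Of the T-cell markers 1 of 5 had a row, CD28, at 1.56 and 2.02 CPM with MZ1 and 0.183 and 0 CPM with DMSO, and the CD3 genes had none. The erythroid markers, 4 of 5 with a row and 1 tested, summed to 3.68 and 3.11 CPM with MZ1 and 0.122 and 0.472 CPM with DMSO, and 3 were at 0 in the DMSO libraries. The stromal markers, 2 of 5 with a row, summed to 33.3 and 31.1 CPM with MZ1 and 106.6 and 106.3 CPM with DMSO, 1 lower and 1 not called. Their part in the changes of the methylation enzymes was not tested.

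Across 12 alternative analyses the other 6 tested genes kept direction and call. UHRF1 lay between -2.15 and -1.80 on the log2 scale, DNMT1 between -1.05 and -0.71, TDG between -0.99 and -0.62 and DNMT3A between -0.54 and -0.19. UHRF2 lay between 0.91 and 1.25 and DNMT3B between 1.20 and 1.55.

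**Figure D4:**
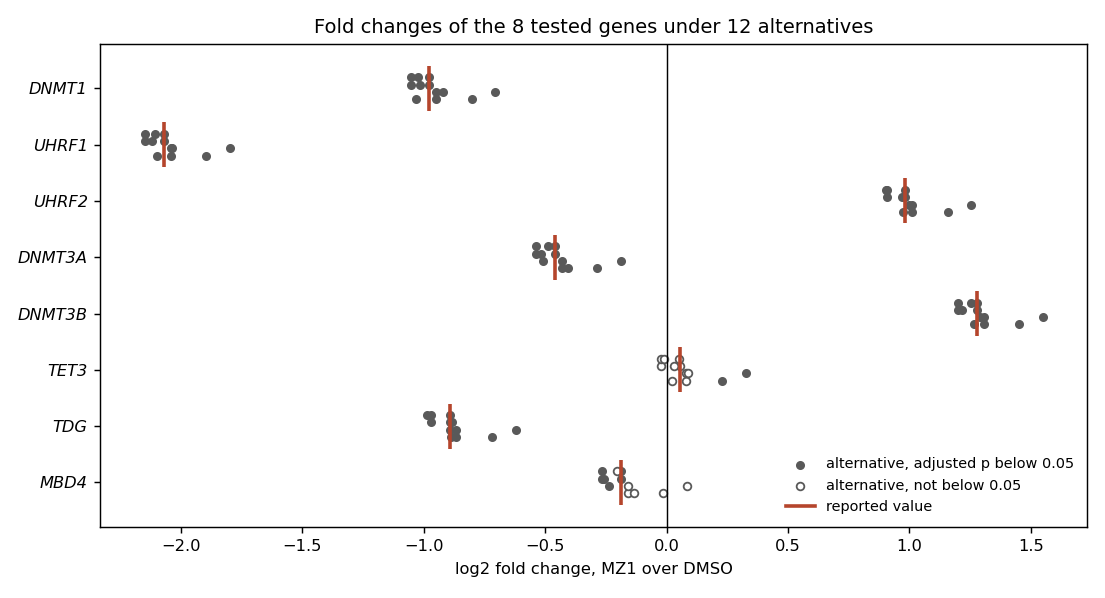
Log2 fold change (MZ1 over DMSO) of the 8 tested genes: a coloured bar marks the reported value, and points mark 12 alternatives, filled where the adjusted p was below 0.05. The points of UHRF1, DNMT1, TDG, DNMT3A, UHRF2 and DNMT3B stay on the same side of 0, while those of TET3 (-0.02 to 0.33) and MBD4 (-0.27 to 0.08) cross it.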

How the data were processed

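RNA of 697 cells treated for 24 h with 1 µM MZ1 (2 libraries) or DMSO (2 libraries) was extracted with TRIzol and made into libraries with an Illumina TruSeq RNA kit, per the labels' protocols. The deposited values are whole-number read counts per Ensembl gene ID, per the file headers and the values themselves. Per the submitters' processing notes, HISAT2 2.2.0 and hg38 were used. Which program counted the reads, on which annotation and with which strand setting is not given in the sources used here. Reads of overlapping genes on either strand therefore cannot be separated. The lowest row total was 2 counts, so a missing row may be an unread gene or one left out.

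All 28814 IDs were found in GENCODE 29 (GRCh38, the same build as hg38), which gave positions, exonic lengths and overlaps, and symbols for 28597 came from the gene name table. Genes passing filterByExpr (16862) were scaled with TMM and tested with edgeR 4.0.16 (glmQLFit, glmQLFTest) in R 4.3.3 with treatment as the only term, and p-values were adjusted over all tested genes by the Benjamini-Hochberg method. Ratios within libraries were computed in Python 3.11.15 with exact permutation tests (scipy 1.17.1). Floors and intervals cover counting error only. The analysis was tested on simulated data in which few genes changed, equally up and down. That setting is unlike the broad response here, so it does not check the scaling.

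The replicates of each treatment differed by more than sampling noise (chi-square per degree of freedom 2.17 for MZ1 and 2.44 for DMSO) and each library counts as 1 replicate. Alternatives used other scalings and count filters, DESeq2 1.42.0 and limma-voom (limma 3.58.1), another gene length and a replicate block, or left out each library in turn. The genes and the 8 lists around them were chosen with earlier results of these data known. The text names every tested gene of a list of 9 or fewer, and otherwise the 3 called genes per direction whose adjusted p was smallest. HELLS, PCNA and ZBTB38, the pseudogenes and the marker genes fall outside this rule and were named after their values were seen. A few genes that the rule covers are counted in their lists but not reported by name. Protein sequences were not used here.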

Additional observations from a re-analysis of the deposited data

How the results depend on the processing

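With 2 libraries per treatment, the spread within a group rests on a single difference, a permutation test cannot reach 0.05, and leaving a library out assumes that the lone one varies like the others. A change in total RNA per cell would not be seen, since every level is a share of its library. Upper-quartile scaling moved the median of all log2 fold changes by 0.27 and the filter of at least 1 CPM in all 4 libraries by 0.17, so genes with small changes depend on the scaling. TET1 and TET2 stay undecided at this depth. Ratios of either to another TET gene could not be given because of zeros.

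UHRF1, UHRF2, DNMT1, DNMT3A, DNMT3B and TDG kept their direction and call under all 12 alternatives. TET3 turned to -0.023 both when only library totals set the scale and when no count filter was used, and ranged from -0.010 (without DMSO replicate 2) to 0.088 over fits that left out a library. It was called higher with upper-quartile scaling (0.33) and the stricter filter (0.23). MBD4 turned to 0.083 with upper-quartile scaling. Its call was also lost with RLE scaling (-0.16, adjusted p = 0.0725, edgeR), with the stricter filter (-0.01, adjusted p = 0.878, edgeR), with DESeq2 (-0.16, adjusted p = 0.254) and without either of the libraries named above. The cause was not tested.

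Among 42 genes with a fitted fold that the naming rule covers around the enzymes, 482 of 500 results kept direction and call. ZBTB33 turned to -0.034 with library totals and without a filter, and ranged from -0.032 (without DMSO replicate 1) to 0.074 when a library was left out. MAT2B turned to -0.0016 with library totals and -0.0019 without a filter. With upper-quartile scaling AHCY turned to 0.077 and GRB10 to 0.13, and GRB10 to 0.032 with the stricter filter. STK31 lost its call without MZ1 replicate 1 and with DESeq2. Leaving out a library gave medians of -0.0079 (without DMSO replicate 1) to 0.11 for the TET partner list and of -0.17 (without MZ1 replicate 1) to 0.037 for base excision repair. Upper-quartile scaling gave 0.077 for the S-adenosylmethionine cycle.

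Counts moved by over 1.5 times in 5 lists. Readers called higher were 2 with upper-quartile scaling and with the stricter filter, and G1/S genes called higher were 2 with upper-quartile scaling. Imprinted genes called higher were 3 with the stricter filter, and those called lower were 0 with upper-quartile scaling, the stricter filter and DESeq2. Leaving out each library gave 4 to 6 base excision repair genes higher (4 without either DMSO library), 1 to 3 germline genes higher (1 without MZ1 replicate 1) and 0 to 1 imprinted genes lower (0 without MZ1 replicate 1). The stricter filter left no germline gene to test. The methyltransferase to TET difference was -0.60 over the longest transcript and -0.65 on raw counts, against -0.43.

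Same-numbered libraries showed no shared deviation: their deviations correlated at -0.00984 over 9847 genes. That cannot settle whether the samples were paired by culture or day, which the labels do not say. With the replicate block, 7107 genes were higher and 6856 lower, and 2 and 5 of the methylation genes were, MBD4 with an adjusted p of 0.0491 (edgeR).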
